A study of Mus musculus with 8 samples.

Results

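Matrix metalloproteinases are zinc-dependent enzymes that cut collagens and other proteins of the extracellular matrix. The genes described here are 7 members of that family (Mmp2, Mmp3, Mmp9, Mmp10, Mmp12, Mmp13 and Mmp14), the inhibitor gene Timp1 and Tnc, which encodes the matrix glycoprotein tenascin C. They were chosen by symbol: a probe set was taken when the array annotation gave it one of these symbols and no other. Each of the 9 genes had 1 probe set, so that 9 of 41345 probe sets and 9 of 22180 genes with a single symbol are described.

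The enzymes are secreted or membrane-bound as precursors and become active when a propeptide is removed. TIMP proteins bind the active enzymes and block them. In skin, stromelysins, gelatinases and collagenases act in wound repair and inflammation, and tenascin C is laid down in the dermis of wounds and of psoriatic plaques.

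The arrays measured RNA from the dorsal skin of male mice, 1 array for each of 8 labels. The 6 arrays labelled KO came from strain B6.Cg-Il22ra1tm1.1Koll/J, which carries a targeted allele of the IL-22 receptor alpha chain, and the 2 labelled WT came from C57BL/6. Imiquimod (IMQ), an agonist of Toll-like receptor 7 that inflames mouse skin in a psoriasis-like way, was given to back and ears once a day over days 1 to 7 as 83.3 mg of a 5% cream. A second cream, vehicle or alloferon, was put on 6 hours after it. Alloferon is a peptide first found in insects.

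The labels with IMQ were KO_IMQ_Allo, KO_IMQ, KO_IMQ_B and WT_IMQ, and those without it were KO_Allo, KO_CTRL, KO_CTRL-B and WT_CTRL. They form 4 pairs whose labels differ in IMQ alone, called KO Allo, KO plain, KO B and WT. Alloferon is named on KO arrays only. What the letter B marks, the age of the mice, in which cells the allele is altered, whether arrays without IMQ in the label received a cream of any kind, and whether RNA of the stated 4 mice per group was pooled on an array are not given in the sources used here. The arrays of a pair may thus differ in vehicle or second cream as well as in IMQ. The p-values measure only how far these arrays spread, part of which may be technical.

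The keratin gene Krt14, a marker of the epidermis, read 10.97 to 12.74 on the KO arrays and 10.96 to 12.33 on the WT arrays (log2 expression values). Il22ra1 was not lower on the KO arrays, at 8.59 to 9.40, than on the WT arrays, at 8.23 to 8.64. A probe set that may lie outside the altered stretch does not check the genotype. The KO_Allo array stood apart from the others without IMQ in genes of injured epidermis. Krt6b, a keratin made after skin injury, read 11.83 on KO_Allo, against 4.67 on KO_CTRL, 7.49 on KO_CTRL-B and 5.00 on WT_CTRL, while the 4 arrays with IMQ read 12.12 to 12.71. The median of the 15 measured hair follicle markers on KO_Allo was 9.01, within the 7.33 to 10.28 of the other arrays without IMQ. KO_IMQ_Allo in turn read 4.78 for the cytokine gene Il1b, against 7.89 to 8.68 on the other IMQ arrays, and KO_Allo read 7.86, against 4.39 to 4.96 on the others without IMQ. In Il1b both arrays went against what their labels say of IMQ, and in Krt6b KO_Allo alone did. The IL-36 alpha gene Il1f6 kept the order of the labels, at 10.28 on KO_IMQ_Allo and 7.66 on KO_Allo. Whether the labels are right was not tested. Each value of the KO Allo pair below rests on the labels as given, and the members' results are given with and without that pair. The fit without it was taken up as a result after the data were seen.

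The enzyme genes Mmp13, Mmp12, Mmp3 and Mmp10 lie close together on chromosome 9, and the bases before their transcription starts are shown because these neighbours differed in how they moved with IMQ. The sequences are the 100 bases before the start in RefSeq (GRCm38.p6), 5′ to 3′ on the gene's strand, with capitals on the letters TGAGTCA or their reverse complement TGACTCA, which the transcription factor AP-1 (dimers of Fos and Jun proteins) can bind, and on TATAAA, the core of a TATA box. Mmp12 has 2 starts in the table, of which the second is shown, and Timp1, on chromosome X, is set beside the 4 enzyme genes as a gene without these letters.
Mmp13, chr9:7272414-7272513, plus strand: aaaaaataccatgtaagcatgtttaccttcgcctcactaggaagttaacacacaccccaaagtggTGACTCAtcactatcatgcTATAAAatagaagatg
Mmp3, chr9:7445722-7445821, plus strand: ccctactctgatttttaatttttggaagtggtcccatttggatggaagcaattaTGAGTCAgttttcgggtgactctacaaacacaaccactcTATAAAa
Mmp10, chr9:7502242-7502341, plus strand: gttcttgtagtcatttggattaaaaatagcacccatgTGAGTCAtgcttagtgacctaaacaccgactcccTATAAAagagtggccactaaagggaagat
Mmp12, chr9:7347274-7347373, plus strand: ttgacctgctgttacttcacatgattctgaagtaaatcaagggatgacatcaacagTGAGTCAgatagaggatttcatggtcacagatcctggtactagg
Timp1, chrX:20870066-20870165, plus strand: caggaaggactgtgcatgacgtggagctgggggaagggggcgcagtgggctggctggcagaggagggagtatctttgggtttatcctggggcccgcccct

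The AP-1 letters span bases -35 to -29 from the start of Mmp13, -46 to -40 of Mmp3, -63 to -57 of Mmp10 and -44 to -38 of the second start of Mmp12. Within 250 bases before to 50 after the start, searched on both strands, these were the only members among the 7 with a sequence in the table (Mmp2 and Mmp9 have none there) that hold them. Over the table's 32851 windows 5.2% hold the AP-1 letters and 13.6% hold TATAAA, or 1.88% and 5.56% of the 100-base stretches. A match describes letters in these windows and is not evidence of binding. Mmp10, and Mmp12 at its second start only, carry the AP-1 letters as Mmp13 and Mmp3 do. The window of the first start of Mmp12 holds neither the AP-1 letters nor TATAAA. The measured differences of these genes with IMQ are given below.

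Mmp13 encodes collagenase 3, the main enzyme in mice that opens the triple helix of fibrillar collagens. Its log2 expression value was 4.23 on KO_IMQ_Allo, 7.15 on KO_IMQ, 7.74 on KO_IMQ_B and 7.11 on WT_IMQ, against 6.54 on KO_Allo, 3.85 on KO_CTRL, 4.91 on KO_CTRL-B and 4.38 on WT_CTRL. The 3 IMQ arrays without alloferon lay well above the 3 matching arrays, and in the KO Allo pair the order was turned round. KO_Allo lay 1.64 log2 units above the highest of the other arrays without IMQ, and KO_IMQ_Allo differed by -2.88 from the lowest of the other IMQ arrays. In the 3 pairs without alloferon Mmp13 averaged 7.33 ± 0.36 with IMQ and 4.38 ± 0.53 without (SD, n = 3 each). It rose by 2.95 ± 0.14 log2 units, or 7.75-fold (± is the limma standard error here and below; adjusted p = 0.00088, limma). Over all 4 pairs the difference was 1.64 ± 0.89 (adjusted p = 0.384, limma).

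Mmp3 and Mmp10 encode the stromelysins 1 and 2, which cut proteoglycans, fibronectin and other matrix proteins and activate other metalloproteinase precursors. Mmp3 read 7.91 on KO_IMQ_Allo, 9.07 on KO_IMQ, 8.89 on KO_IMQ_B and 9.04 on WT_IMQ, against 8.01 on KO_Allo, 7.59 on KO_CTRL, 8.21 on KO_CTRL-B and 7.91 on WT_CTRL. Among the IMQ arrays KO_IMQ_Allo alone overlapped the arrays without IMQ. In the 3 pairs without alloferon Mmp3 rose by 1.09 ± 0.17 log2 units, or 2.14-fold (adjusted p = 0.0205, limma), and over 4 pairs it measured 0.80 ± 0.24 (adjusted p = 0.141, limma). Mmp10 read 5.43 on KO_IMQ_Allo, 5.78 on KO_IMQ, 5.93 on KO_IMQ_B and 5.88 on WT_IMQ, against 5.93 on KO_Allo, 5.18 on KO_CTRL, 5.56 on KO_CTRL-B and 5.17 on WT_CTRL. KO_Allo was thus as high as the highest IMQ array. The Mmp10 difference of 0.56 ± 0.12 over the 3 pairs did not pass the test (adjusted p = 0.0506, limma), and over 4 pairs it was 0.30 ± 0.20 (adjusted p = 0.492, limma).

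Mmp2 and Mmp9 encode the gelatinases, which digest denatured collagen and the type IV collagen of basement membranes. The product of Mmp9 is stored in granules of neutrophils. Mmp9 read 5.46 on KO_IMQ_Allo, 6.96 on KO_IMQ, 7.97 on KO_IMQ_B and 7.86 on WT_IMQ, against 6.32 on KO_Allo, 5.87 on KO_CTRL, 5.79 on KO_CTRL-B and 5.76 on WT_CTRL. Its lowest value of all 8 arrays was on KO_IMQ_Allo, and KO_IMQ differed from KO_IMQ_B by -1.01. Mmp9 rose by 1.79 ± 0.23 log2 units in the 3 pairs without alloferon, or 3.45-fold (adjusted p = 0.0111, limma), against 1.13 ± 0.48 over 4 pairs (adjusted p = 0.273, limma). Mmp2, a product mainly of fibroblasts, varied little. It read 11.04 on KO_IMQ_Allo, 11.57 on KO_IMQ, 11.46 on KO_IMQ_B and 11.61 on WT_IMQ, against 11.26 on KO_Allo, 10.88 on KO_CTRL, 11.24 on KO_CTRL-B and 10.98 on WT_CTRL. The Mmp2 difference was 0.52 ± 0.13 over the 3 pairs (adjusted p = 0.0872, limma) and 0.33 ± 0.16 over 4 pairs (adjusted p = 0.341, limma).

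Mmp14 encodes the membrane-type enzyme MT1-MMP, which activates the Mmp2 precursor at the cell surface together with Timp2. It read 11.10 on KO_IMQ_Allo, 11.56 on KO_IMQ, 11.34 on KO_IMQ_B and 11.77 on WT_IMQ, against 11.55 on KO_Allo, 10.53 on KO_CTRL, 11.04 on KO_CTRL-B and 10.73 on WT_CTRL. KO_Allo lay inside the range of the IMQ arrays, and the difference of 0.79 ± 0.17 over the 3 pairs missed the threshold (adjusted p = 0.0571, limma), as did that of 0.48 ± 0.25 over 4 pairs (adjusted p = 0.365, limma). Mmp12 encodes macrophage elastase. Its values ran from 5.35 on WT_IMQ to 5.96 on KO_Allo, and the 4 IMQ arrays, at 5.35 to 5.70, overlapped the 4 without IMQ, at 5.53 to 5.96. The Mmp12 difference was -0.18 ± 0.12 over the 3 pairs (adjusted p = 0.468, limma) and -0.20 ± 0.10 over 4 pairs (adjusted p = 0.335, limma).

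Timp1 encodes a secreted inhibitor of most matrix metalloproteinases. It read 5.84 on KO_IMQ_Allo, 7.31 on KO_IMQ, 7.17 on KO_IMQ_B and 6.81 on WT_IMQ, against 6.35 on KO_Allo, 4.67 on KO_CTRL, 5.11 on KO_CTRL-B and 5.19 on WT_CTRL. Both alloferon arrays lay between the 3 other IMQ arrays and the 3 others without IMQ. Timp1 rose by 2.10 ± 0.20 log2 units in the 3 pairs without alloferon, or 4.30-fold (adjusted p = 0.00442, limma), and measured 1.45 ± 0.47 over 4 pairs (adjusted p = 0.161, limma).

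Tnc encodes tenascin C, a large hexameric glycoprotein that changes the adhesion of cells to fibronectin. Its value was 9.41 on KO_IMQ_Allo, 10.89 on KO_IMQ, 10.61 on KO_IMQ_B and 10.79 on WT_IMQ, against 9.83 on KO_Allo, 7.07 on KO_CTRL, 8.21 on KO_CTRL-B and 7.77 on WT_CTRL. As with Timp1, both alloferon arrays were intermediate. In the 3 pairs without alloferon Tnc averaged 10.76 ± 0.14 with IMQ and 7.68 ± 0.58 without (SD, n = 3 each). Tnc rose there by 3.08 ± 0.26 log2 units, or 8.47-fold (adjusted p = 0.00315, limma). Over 4 pairs it measured 2.21 ± 0.62 (adjusted p = 0.119, limma).

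**Figure D1:**
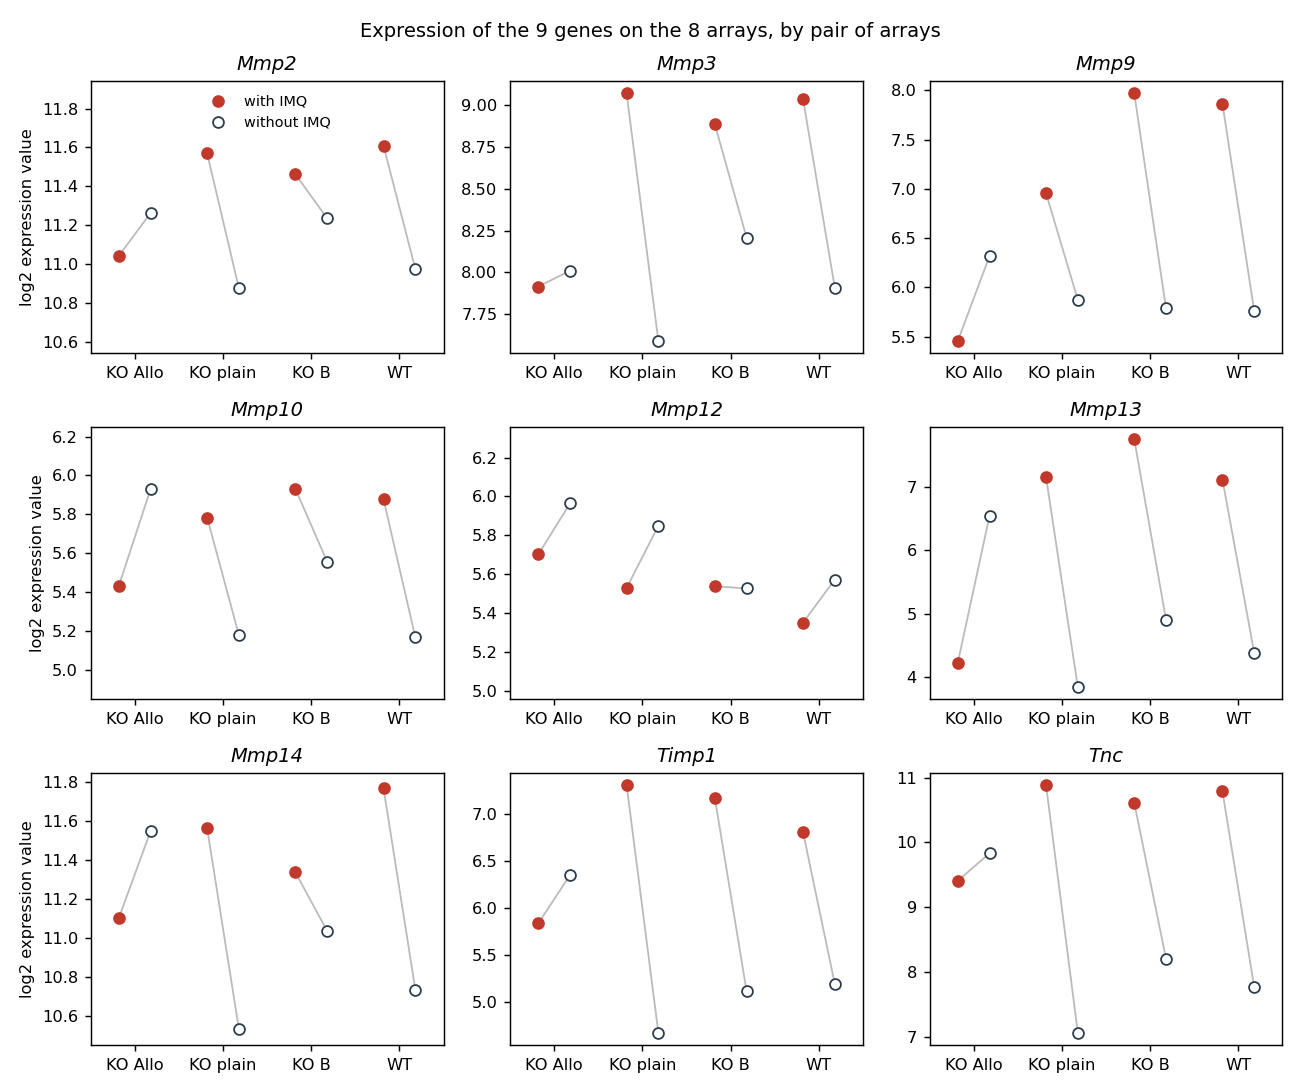
Log2 expression value (vertical axis, own scale in each panel) of the 9 genes on the 8 arrays, by pair of arrays (horizontal axis), with filled points for IMQ, open points for no IMQ and a line joining each pair. In 8 of 9 panels the line slopes one way in the KO plain, KO B and WT pairs and the other way in the KO Allo pair; Mmp12 is the exception.

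How IMQ shifted the members across all 4 pairs was tested first. Of the 9 genes, 0 passed the test in limma, while 3.09% of all genes did (685 of 22180, adjusted p under 0.05). Of all genes, 1.9% rose. At an unadjusted p under 0.05, 3 of 9 (Mmp3, Timp1 and Tnc) were higher with IMQ, where 9.37% of all genes were higher and 18.8% were past that limit in either direction. The members' median difference was 0.80, against -0.01 over all genes. No member had its 4 IMQ arrays all above the 4 arrays without IMQ, a pattern of 5.96% of all genes, and none had the same sign in all 4 pairs, as 27.0% of all genes did.

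Without the KO Allo pair, 5 of 9 rose (Mmp3, Mmp9, Mmp13, Timp1 and Tnc), against 5.89% of all genes called in either direction and 3.72% that rose. None fell. The members' median difference was 1.09 over these 3 pairs, against -0.01 over all genes. In 8 of 9, all but Mmp12, the 3 IMQ arrays lay above the 3 without, as in 12.7% of all genes. The same 8 were higher with IMQ in each of the 3 pairs, as 20.5% of all genes were. With only 3 pairs the calls depend on each of them. Leaving out the WT pair as well left Mmp13, Timp1 and Tnc called (Mmp3 adjusted p = 0.132 and Mmp9 adjusted p = 0.0887, limma), and leaving out the KO plain pair ended the call of Mmp3 (adjusted p = 0.0529, limma). Without the KO B pair Mmp14 rose too, by 1.03 ± 0.16 log2 units (adjusted p = 0.0163, limma).

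Sizes differed among the 3 pairs. A difference of 1 log2 unit (2-fold) or more with IMQ was measured for 6 of 9 genes in the KO plain pair (2.69% of all genes), for 4 of 9 in the KO B pair (1.83%) and for 6 of 9 in the WT pair (2.5%). None was lower by as much in the KO plain pair (2.22%) or the WT pair (2.12%). These compare 1 array with 1 and have no replicate check. Tnc differed by 3.82 in the KO plain pair, 2.40 in the KO B pair and 3.02 in the WT pair, and Timp1 by 2.64, 2.06 and 1.62 in the same pairs. Mmp3 and Mmp14 had their smallest difference of the 3 in the KO B pair, at 0.68 and 0.30, where KO_CTRL-B was the highest of the 3 arrays without IMQ. Mmp9 had its smallest in the KO plain pair, at 1.08.

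**Figure D2:**
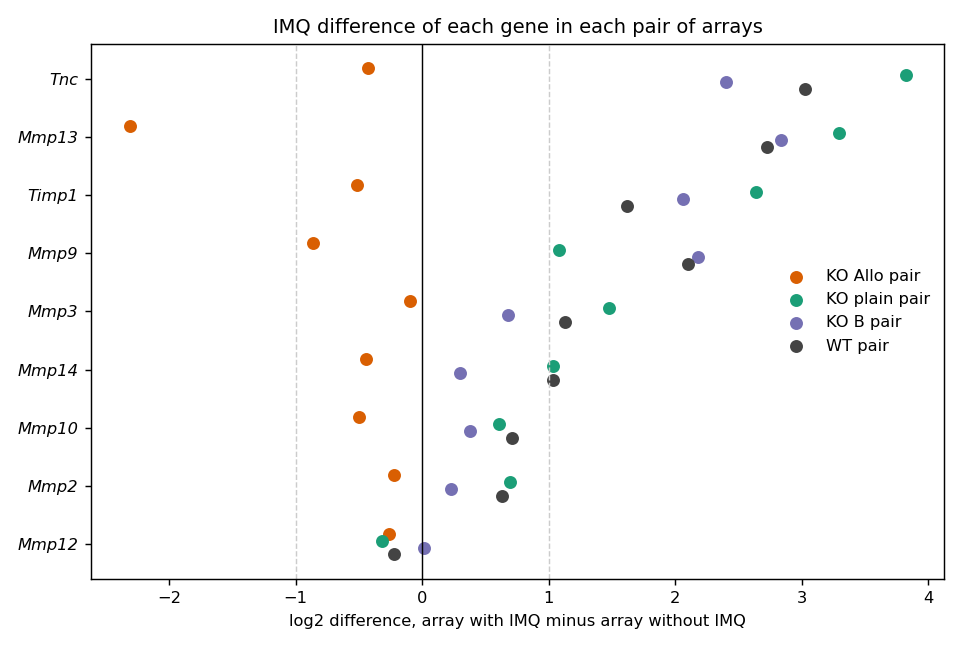
Log2 difference of each of the 9 genes between the array with IMQ and the array without it (horizontal axis), 1 point per pair of arrays, genes down the vertical axis; dashed lines mark 1 log2 unit either way. The KO Allo points lie below 0 for all 9 genes, at -2.31 for Mmp13, while the other 3 pairs lie above 0 for all but Mmp12.

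The second comparison asks whether the difference with IMQ was another where alloferon was in the label, taking both labels as given. In the KO Allo pair the difference with IMQ was -2.31 for Mmp13, -0.86 for Mmp9, -0.51 for Timp1, -0.50 for Mmp10, -0.45 for Mmp14, -0.43 for Tnc, -0.26 for Mmp12, -0.22 for Mmp2 and -0.10 for Mmp3. All 9 were below 0 on this 1 pair of arrays, and Mmp13 alone was past 1 log2 unit (0.938% of all genes were lower by that much and 0.771% higher). The pattern of higher with IMQ in each of the other 3 pairs and lower in the KO Allo pair was seen in 8 of 9 members, against 7.92% of all genes.

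The difference between the KO Allo pair and the mean of the other 3 was tested directly. The KO Allo side is 1 pair, so the spread comes from the other 3 pairs alone. For Mmp13 it was -5.27 ± 0.29 log2 units (adjusted p = 0.0251, limma), the smallest p of 22180 genes. Only 2 genes passed, or 0.00902% of all genes, and the other was Sprr1b, a cornified envelope protein, at -3.67 ± 0.22 (adjusted p = 0.0251, limma). The call of Mmp13 was lost without the WT pair, where the difference was -5.38 ± 0.30 (adjusted p = 0.247, limma), and it stood without the KO plain pair (adjusted p = 0.0168, limma) and without the KO B pair (adjusted p = 0.00783, limma). The other members did not pass. Tnc measured -3.51 ± 0.51 (adjusted p = 0.172, limma), Mmp9 measured -2.65 ± 0.46 (adjusted p = 0.235, limma) and Timp1 measured -2.62 ± 0.40 (adjusted p = 0.194, limma).

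Leaving out 1 pair moved 2 of these past the threshold: Tnc without the KO B pair (-3.85 ± 0.38, adjusted p = 0.042, limma) and Mmp9 without the KO plain pair (-3.01 ± 0.23, adjusted p = 0.0347, limma). At an unadjusted p under 0.05, 8 of 9 members were lower in the KO Allo pair, against 4.83% of all genes lower and 8.24% in either direction. The exception was Mmp12, at -0.09 ± 0.24. The members' median was -1.24, against 0.02 over all genes.

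**Figure D3:**
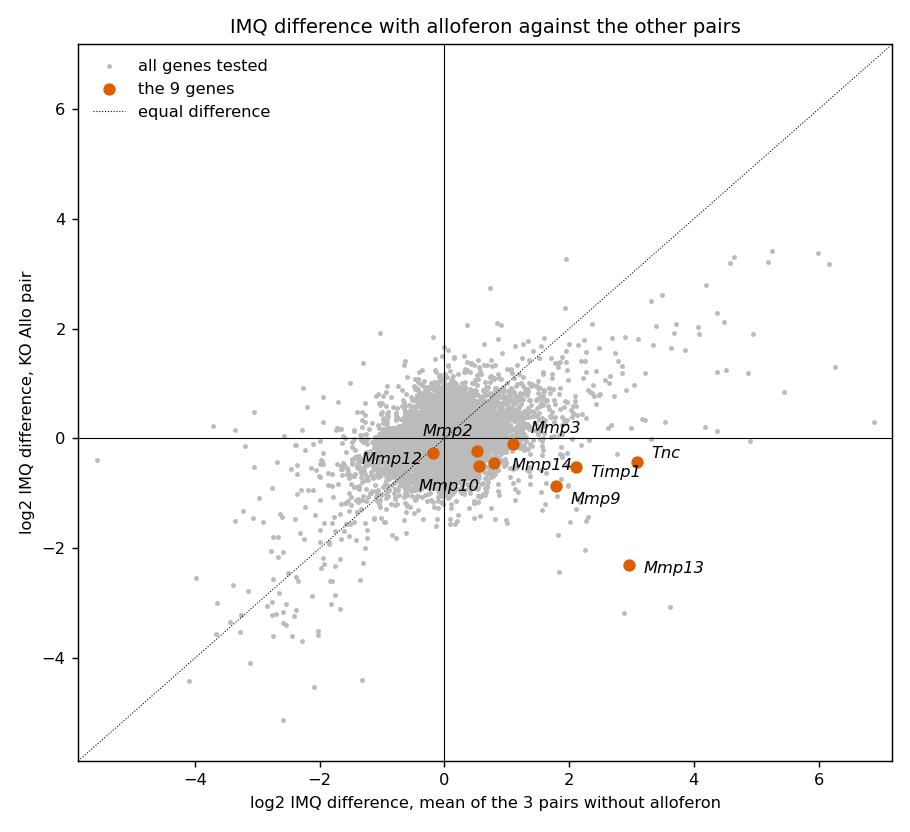
Log2 difference with IMQ in the KO Allo pair (vertical axis) against the mean over the other 3 pairs (horizontal axis), grey points for all 22180 genes and orange points for the 9 genes; the dotted line marks equal differences. Mmp13 lies lowest of the 9, at 2.95 across and -2.31 up.

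Both arrays of the KO Allo pair contributed. KO_Allo was above each of the other 3 arrays without IMQ in 8 of 9 members, all but Mmp3 (27.3% of all genes), and KO_IMQ_Allo was below each of the other 3 IMQ arrays in 8 of 9, all but Mmp12 (26.7%). Both held for 7 of 9, against 7.37% of all genes. Within the KO arrays, KO_Allo exceeded both KO_CTRL and KO_CTRL-B by 1 log2 unit or more in Mmp13, Timp1 and Tnc, a count of 3 of 9, against 0.307% of all genes. KO_IMQ_Allo was lower than both KO_IMQ and KO_IMQ_B by as much in Mmp9, Mmp13, Timp1 and Tnc, a count of 4 of 9, also against 0.307%. For Tnc the distances were 2.77 above KO_CTRL and 1.63 above KO_CTRL-B, and -1.48 from KO_IMQ and -1.20 from KO_IMQ_B. These are single arrays with no replicate check, so that alloferon and the array itself cannot be told apart.

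The third comparison asks whether the IMQ difference depended on the genotype. No gene passed the test of the WT difference minus the KO difference (0.0% of 22180 genes, smallest adjusted p = 0.983, limma), and 4.12% of all genes and 0 of 9 members had an unadjusted p under 0.05. The KO Allo pair enters the spread of this test. Mmp13 measured 1.45 ± 2.19, Tnc 1.09 ± 1.53 and Timp1 0.22 ± 1.19 (WT minus KO). Without the KO Allo pair the same differences were -0.34 ± 0.30 for Mmp13, -0.09 ± 0.60 for Tnc and -0.73 ± 0.33 for Timp1. In a fit with separate IMQ effects for KO and WT, the 3 KO pairs called no gene in limma (0.0%). The WT effect in that fit rests on 1 pair, and its spread was taken from the KO pairs, KO Allo included. It thus says nothing of the spread among WT arrays. At an unadjusted p under 0.05 there were 3093 of the 22180 genes over the KO pairs. Among them was 1 of 9 members over the KO pairs, Tnc, at 1.93 ± 0.76, a count no higher than the share over all genes. Between single arrays of the same treatment, 0 of 9 members differed by 1 log2 unit between KO_IMQ and WT_IMQ, KO_IMQ_B and WT_IMQ, KO_CTRL and WT_CTRL, or KO_CTRL-B and WT_CTRL, where 1.29%, 1.22%, 1.34% and 1.14% of all genes did. The nearest to it was Mmp9, which differed by -0.91 between KO_IMQ and WT_IMQ. Between the KO arrays without IMQ and without alloferon, Mmp13 and Tnc differed by -1.05 and -1.14 (KO_CTRL minus KO_CTRL-B; 2.84% of all genes differed by 1 log2 unit or more).

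Mmp13, Mmp12, Mmp3 and Mmp10 belong to a run of 10 metalloproteinase genes on chromosome 9, in RefSeq order Mmp13, Mmp12, Mmp1b, Mmp3, Mmp1a, Mmp10, Mmp8, Mmp27, Mmp20 and Mmp7, all 10 measured. Over the 3 pairs without alloferon 3 of them rose: Mmp13 and Mmp3 as above, and Mmp8, the neutrophil collagenase, by 1.46 ± 0.18 log2 units (adjusted p = 0.0107, limma). The genes between and beside them did not pass, with differences of 0.35 for Mmp1b, -0.13 for Mmp1a, -0.23 for Mmp27, -0.27 for Mmp20, the enamel enzyme, and -0.03 for Mmp7, matrilysin. In the KO Allo pair Mmp8 differed by 0.25 and Mmp13 by -2.31. Mmp13 and Mmp12, next to each other in the run, thus had differences over the 3 pairs of 2.95 and -0.18. Both had means below the 6.06 of the median gene, at 5.74 and 5.63. Mmp1a, at 2.14 to 2.67, and Mmp1b, at 2.62 to 3.58, were dim on every array, while Mmp27, at 6.71 to 7.27, was not. Whether a low level hid a change was not tested.

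**Figure D4:**
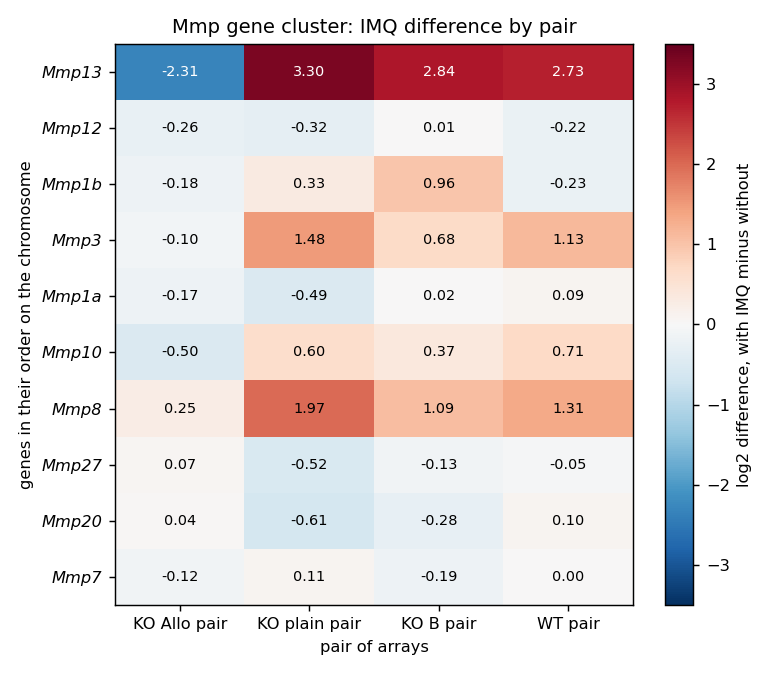
Log2 difference with IMQ for the 10 genes of the chromosome 9 run (rows, in their order on the chromosome) in each pair of arrays (columns), with the value printed in each cell. Mmp13, Mmp3 and Mmp8 are at 0.68 or more in each of the KO plain, KO B and WT pairs, and the 5 genes Mmp1a, Mmp12, Mmp27, Mmp20 and Mmp7 lie between -0.61 and 0.11 in every pair.

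Other genes of matrix turnover were described from lists of related genes. Of 15 other measured metalloproteinases, Mmp19 rose over 4 pairs, by 1.01 ± 0.18 (adjusted p = 0.0386, limma), and 3 rose over the 3 pairs without alloferon: Mmp19, Mmp8 and Mmp11, stromelysin 3, the last by 1.87 ± 0.26 (adjusted p = 0.0141, limma). In the KO Allo pair Mmp19 differed by 0.34 and Mmp11 by -0.74. Of the 4 other inhibitors, Timp3, which binds to the matrix, fell by 0.84 ± 0.11 log2 units over 4 pairs (adjusted p = 0.0208, limma). Timp3 was lower with IMQ in each pair, with differences of -0.65 in the KO Allo pair, -1.04 in KO plain, -1.01 in KO B and -0.67 in WT. Reck, a membrane-anchored inhibitor, measured -0.38 ± 0.15 over 4 pairs (adjusted p = 0.245, limma).

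Plasminogen activation feeds into metalloproteinase activation, since plasmin cuts propeptides. Of 6 measured genes of that system 0 passed over 4 pairs (1 at an unadjusted p under 0.05) and 2 rose over the 3 pairs: Plau, urokinase, by 1.04 ± 0.12 (adjusted p = 0.00724, limma), and its receptor gene Plaur by 0.79 ± 0.12 (adjusted p = 0.0218, limma). In the KO Allo pair they differed by 0.17 and -0.41. Adam8, a membrane protease of leukocytes, was the 1 of 9 ADAM genes that rose over 4 pairs, by 1.07 ± 0.21 (adjusted p = 0.049, limma). Of 18 ADAMTS genes Adamts20 fell by 0.92 ± 0.17 log2 units over 4 pairs (adjusted p = 0.0479, limma), a call that ended without the KO Allo pair (-0.95, adjusted p = 0.0578, limma). Over the 3 pairs Adamts4, an aggrecanase, rose by 0.98 ± 0.11 (adjusted p = 0.00785, limma) and Adamts3, a procollagen peptidase, fell by 0.76 ± 0.11 log2 units (adjusted p = 0.0185, limma).

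Among 15 measured genes of other tenascins and matricellular proteins, Ccn1 rose by 0.47 ± 0.09 (adjusted p = 0.0465, limma) and the thrombospondin gene Thbs4 fell by 1.03 ± 0.16 log2 units over 4 pairs (adjusted p = 0.03, limma). Tnc, at 2.21 over 4 pairs, did not pass (adjusted p = 0.119, limma). The tenascin gene Tnn did not pass either, at 1.02 ± 0.57 over 4 pairs (adjusted p = 0.404, limma). Tnn measured 3.33 in the WT pair and 0.24 over the 3 KO pairs. The tenascin genes Tnr and Tnxb measured 0.16 and 0.18 over 4 pairs. Without the KO Allo pair the call of Ccn1 ended (0.47, adjusted p = 0.0666, limma). Over the 3 pairs Thbs2 rose by 1.14 ± 0.21 (adjusted p = 0.034, limma) and Ccn3 by 0.57 ± 0.11 (adjusted p = 0.0379, limma), Thbs4 fell by 0.94 ± 0.18 log2 units (adjusted p = 0.0392, limma), and in the KO Allo pair Thbs2 and Ccn3 differed by -0.92 and -1.07. Of 10 receptor genes for tenascin C and of 17 collagens, laminins and other substrates, 0 passed in limma over 4 or over 3 pairs, with 3 and 0 at an unadjusted p under 0.05 over 4 pairs. The largest differences in these lists over 4 pairs were -0.39 for the integrin gene Itga8 and 0.38 for Col7a1, which encodes the collagen of anchoring fibrils.

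Cytokines and transcription factors known to induce these genes were read in the same way. Of 15 cytokine genes 4 rose over 4 pairs, Il1f6, Il1f9 and Il1f8 (IL-36 alpha, gamma and beta) by 3.27, 2.47 and 2.44 and Il1a by 1.64 log2 units, and these 4 were higher in the KO Allo pair as well, by 2.62, 1.82, 1.56 and 0.66. Il1b rose over the 3 pairs, by 3.62 ± 0.25 (adjusted p = 0.00226, limma). On single arrays Il1b read 4.78 on KO_IMQ_Allo, 7.89 on KO_IMQ, 8.68 on KO_IMQ_B and 8.54 on WT_IMQ, against 7.86 on KO_Allo, 4.96 on KO_CTRL, 4.39 on KO_CTRL-B and 4.91 on WT_CTRL. Its order of arrays was turned round in the KO Allo pair, at -3.08, like that of Mmp13, and the difference between that pair and the others was -6.70 ± 0.50 (adjusted p = 0.0613, limma). Of 12 AP-1 and ETS factor genes, Ehf, an epithelial ETS factor, rose by 2.09 ± 0.22 over 4 pairs (adjusted p = 0.0157, limma), and Ets1 rose by 0.60 ± 0.12 over the 3 pairs (adjusted p = 0.0461, limma). Of the 6 measured genes of the Fos and Jun families 0 passed in either fit in limma. Over 4 pairs Junb measured 0.41 (adjusted p = 0.244, limma) and Fosb -0.45 (adjusted p = 0.261, limma). Of the 12 AP-1 and ETS genes, 6 had an unadjusted p under 0.05 over 4 pairs, against 18.8% of all genes.

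In whole skin, fewer cells of a type and less RNA per cell cannot be told apart. Markers of several cell types moved with IMQ beside the members. Fits with the muscle or the hair follicle median as a covariate are given below, and the part of the other cell types in the results was not tested. Of 9 measured macrophage markers 4 rose over 4 pairs and 8 over the 3 pairs. Their median was 8.74 on KO_IMQ_Allo and 9.25 to 9.40 on the other IMQ arrays, against 7.96 on KO_Allo and 7.52 to 7.76 on the others without IMQ. Itgam, an integrin of myeloid cells, was higher in all 4 pairs, by 0.78 in the KO Allo pair and 2.59 to 2.79 in the others, while Mmp12 did not rise. In 3 of the 9 macrophage markers the KO Allo pair ran opposite to a direction shared by the other 3 pairs. For this and the like counts below, the share over all genes was counted in 1 direction only. It was 7.92% for genes higher with IMQ in the other 3 pairs and lower in the KO Allo pair. The counts of markers take both directions, so how far they exceed all genes was not tested. Neutrophil markers rose in 2 of 9 over 4 pairs and in 3 of 9 over the 3 pairs. Their median was 4.67 on KO_IMQ_Allo and 4.89 to 5.30 on the other IMQ arrays. It was 4.95 on KO_Allo and 4.56 to 4.74 on the others without IMQ. Over 4 pairs Ly6g measured 0.01, Camp 0.04, Ngp 0.10 and Elane -0.25, while Cxcr2 and Csf3r had the largest differences of the list. Cxcr2, a chemokine receptor gene, was higher in all 4 pairs, by 0.78 in the KO Allo pair and 2.12 to 2.54 in the others, and Csf3r differed by -0.13 in the KO Allo pair and by 2.04 to 2.44 in the others. Of the 9 neutrophil markers, 2 differed in the KO Allo pair in the direction opposite to a direction shared by the other 3 pairs. The mast cell markers Cpa3 and Mcpt4, 2 of 7 in their list that rose over the 3 pairs (0 over 4 pairs), differed by -0.80 and -0.68 in the KO Allo pair. That pair ran opposite to a shared direction of the other 3 pairs in 6 of the 7. Fibroblast markers had medians of 9.27 to 9.76 on the IMQ arrays and 9.31 to 9.59 on the others, and 2 of 10 rose over the 3 pairs. The KO Allo pair ran opposite to a shared direction of the other 3 pairs in 5 of the 10. Of 7 endothelial markers 0 passed in limma over 4 or over 3 pairs (0 over 4 pairs at an unadjusted p under 0.05). In 6 of the 7 the KO Allo pair ran opposite to a direction shared by the other 3 pairs, and their median was 0.58 over the 3 pairs and -0.73 for KO Allo minus the others. Of 5 basal epidermis markers Krt15 fell by 1.56 ± 0.25 log2 units over 4 pairs (adjusted p = 0.0305, limma), and Krt14, at 1.15 ± 0.25 over 4 pairs (adjusted p = 0.0649, limma), rose over the 3 pairs (adjusted p = 0.00246, limma).

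The injured-epidermis keratins had a median of 11.65 on KO_IMQ_Allo and 11.93 to 12.32 on the other IMQ arrays, against 11.08 on KO_Allo and 6.99 to 8.65 on the others without IMQ. Hair follicle markers fell in 14 of 15 over 4 pairs and in 13 over the 3 pairs, skeletal muscle markers fell in 3 of 12 and in 9, and adipocyte markers fell in 1 of 7 and in 7. With the muscle marker median of each array as a covariate, 1 member (Mmp13, 2.63 ± 0.32, adjusted p = 0.0414, limma) of the 5 stayed past the threshold over the 3 pairs. With the hair follicle median 0 did, and 0 genes were called at all. A covariate leaves fewer residual degrees of freedom than the 2 of the 3-pair fit, and both marker sets themselves fell with IMQ. A lost call here thus cannot tell tissue content from lost precision. For Mmp13, Timp1 and Tnc the differences themselves were 3.56, 3.47 and 3.06 with the hair follicle median and 2.63, 1.74 and 1.94 with the muscle median.

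Of the members, 5 had an SD of at least 0.5 log2 units over the 8 arrays, and the genes whose levels were most like theirs were found by the root mean square difference between log2 values, each gene centred on its mean over the 8 arrays. These are descriptions with no test. Nearest to Mmp13 were the neutrophil chemokine gene Cxcl2 (0.565 log2 units), Il1b (0.575) and Hdc, which makes histamine (0.581). Mmp9 was nearest to Hdc (0.315), the lipopolysaccharide co-receptor gene Cd14 (0.351) and the myeloid receptor gene Cd300c2 (0.360). Timp1 was nearest to Clec4n, which encodes Dectin-2 (0.223), the receptor gene Csf3r (0.247) and the adaptor gene Pik3ap1 (0.249). For Tnc the 3 were the receptor phosphatase gene Ptprz1 (0.395), Krt6a (0.431) and the RNA sensor gene Tlr13 (0.435), and for Mmp3 they were Efhd2 (0.139), Entpd7 (0.143) and Gnpda1 (0.162). The nearest genes of Mmp13 and Mmp9 were low on KO_IMQ_Allo like these 2 members, whereas those of Tnc and Timp1 were intermediate there. KO_IMQ_Allo was among the 8 arrays used to choose these genes, so this likeness follows from the choice and is no separate result.

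**Figure D5:**
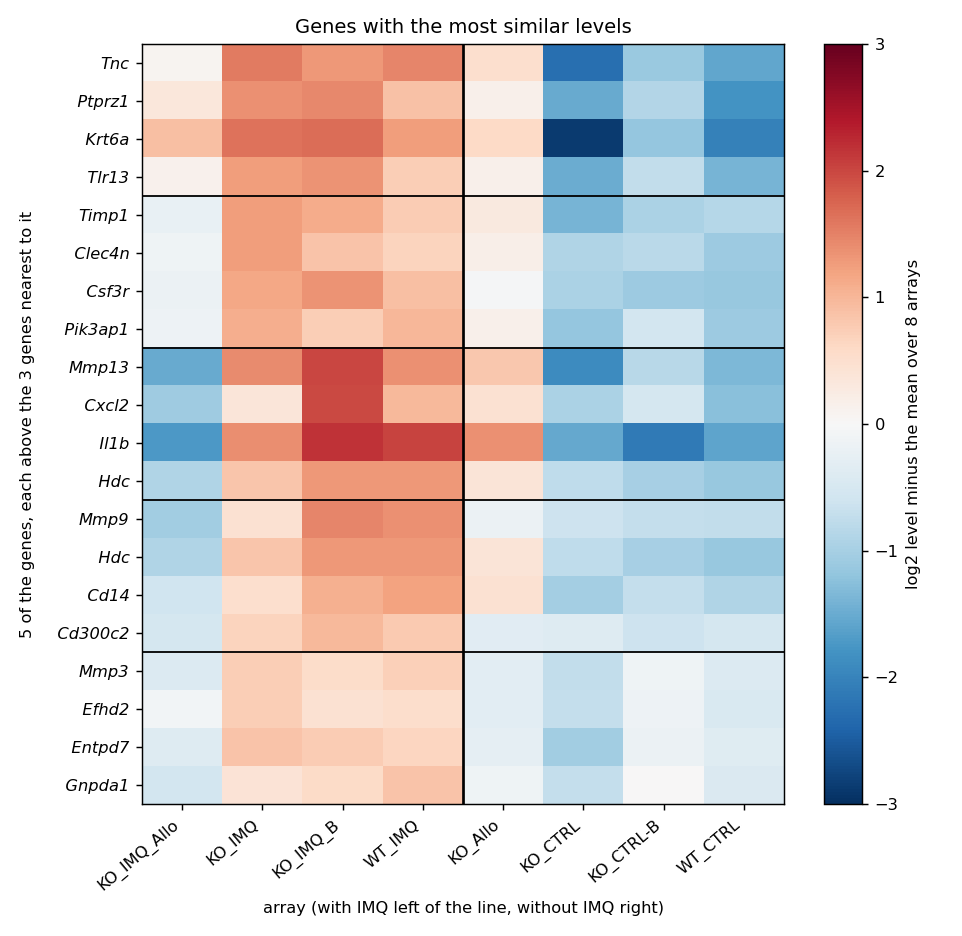
Colour map of log2 level minus the mean over 8 arrays for 5 of the genes, each above its 3 nearest genes (rows), on the 4 arrays with IMQ left of the line and the 4 without IMQ right of it (columns). On KO_IMQ_Allo the blocks of Mmp13 and Mmp9 are below their means, and the block of Tnc is above, most of all Krt6a.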

How the data were processed

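Per the submitters' processing notes, the authors used Affymetrix Power Tools to summarise each array by RMA (robust multi-array average), and the deposited values are on a log2 scale; the notes also list R 3.3.2 with no role. RMA corrects background, gives all arrays a common distribution, and compresses the differences of dim genes. Array medians differed by at most 0.06. Precision is limited by the small number of arrays, and arrays have no read depth.

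Probe sets were named from the platform annotation: 23521 had 1 symbol, 1814 several and 16010 none. Entrez identifiers of 23328 matched RefSeq (GRCm38.p6). For the 1082 genes with more than 1 probe set, the brightest on average was kept, so that 22180 genes were tested, with no filter on dim genes. limma 3.58.1 in R 4.3.3 (lmFit, eBayes, Benjamini-Hochberg over all genes, called at an adjusted p under 0.05) was run with a level per pair of arrays and 1 IMQ effect (3 residual degrees of freedom), or separate IMQ effects for WT and KO, or for KO Allo and the rest (2 residual degrees of freedom each). The spread is that of the IMQ difference among pairs. The fits were tested on simulated data.

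Named genes were all members; of each related list the called genes over 4 pairs, up to 4, or else the 2 largest differences; of each marker list the 2 largest; and the 3 nearest genes of each member with an SD of at least 0.5. Genes called over the 3 pairs only, Sprr1b, Junb, Fosb, Il22ra1 and the other genes of the chromosome 9 run fall outside this rule. So do Tnn, Tnr, Tnxb, Ly6g, Camp, Ngp and Elane. All of these were chosen after values were seen. Members and lists were chosen with earlier results of these data known. Alternatives were other probe set rules, a filter on dim genes, quantile normalization or centring, a trended robust prior, other designs, muscle or hair follicle covariates and leaving out pairs.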

Additional observations from a re-analysis of the deposited data

Results flagged for a closer look

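The IMQ difference of Mmp13 in the KO Allo pair differed from that of the other 3 pairs by -5.27 ± 0.29 log2 units (adjusted p = 0.0251, limma), past the threshold in the test of that difference. The KO Allo side is 1 pair of arrays with no replication. The call was lost without the WT pair (adjusted p = 0.247, limma), with no level per pair (0.0631), with the B arrays as second arrays (0.146) and with the hair follicle covariate (0.0792). All of the other 3 pairs were higher with IMQ and the KO Allo pair was lower.

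Mmp3 had 1 IMQ array far from the other 3. KO_IMQ_Allo read 7.91, against 8.89 on KO_IMQ_B, the nearest, and this gap was 0.841 of the whole range of the 4 IMQ arrays, past the critical value of Dixon's test. Of 18 groups examined (9 genes, with and without IMQ) this was the only one past it, and chance alone marks about 1 in 20 groups. Dixon's test takes the 4 values as replicates, but these arrays differ in their labels. KO_IMQ_Allo is the only one of them labelled with alloferon, so an outlying array and a difference between treatments cannot be told apart.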

How the results depend on the processing

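Over 4 pairs the count of called genes was 685. It was 1028 without dim genes (a set that leaves out Mmp10, Mmp12, Mmp13 and Timp1), 454 with the B arrays read as second arrays, 0 with either covariate, and 0 to 1307 when a pair was left out (0 without WT, 2 without KO B, 260 without KO plain, 1307 without KO Allo). With the muscle covariate the 4-pair differences turned negative for Mmp2 (-0.19), Mmp3 (-0.043), Mmp10 (-0.24), Mmp13 (-0.60) and Mmp14 (-0.37), and with the hair follicle covariate for Mmp2 (-0.44), Mmp3 (-0.044), Mmp9 (-1.03), Mmp10 (-0.70), Mmp13 (-0.72) and Mmp14 (-0.94); the cause was not tested.

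Over the 3 pairs without alloferon, where the fit as a result and its alternatives were chosen after seeing the data, 1307 genes and 5 members were called. With 1 more pair left out these were 299 to 1084 genes and 3 to 6 members; with the muscle covariate, 67 genes and 1 member; with the hair follicle covariate, 0 and 0. Mmp12 turned to 0.10 (muscle) and 0.0039 (hair follicle), and Mmp14 to -0.045 (hair follicle).

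For KO Allo against the other pairs 2 genes were called, against 33 with a trended robust prior, 1 with no level per pair, 18 with the muscle covariate, 0 with the hair follicle covariate and 0 to 24 with a pair left out (0 without WT, 23 without KO plain, 24 without KO B). Mmp13 kept its direction in each of these, at -5.38 to -5.09 with a pair left out, and its call was lost with no level per pair (adjusted p = 0.0631, limma), the B arrays as second arrays (0.146), the hair follicle covariate (0.0792) and without WT (0.247). Mmp12 ranged over -0.16 to 0.0088 with a pair left out.

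The WT counts that follow rest on 1 pair and on the spread of the KO pairs. The KO pairs alone called 0 genes, against 50 with the trended robust prior, 58 with no level per pair, 15 with the muscle covariate and 0 to 299 with a pair left out. The WT pair called 0, against 1, 12 (prior, muscle covariate) and 0 to 41. For WT minus KO the count was 0 under each alternative run. Mmp12 turned to 0.026 and Timp1 to -0.35 with the muscle covariate and Mmp12 to 2.88 with the hair follicle covariate; with a pair left out Mmp12 ranged over -0.096 to 0.070, Mmp13 over -0.34 to 2.46, Timp1 over -0.73 to 0.84 and Tnc over -0.091 to 2.03. Not run, having no contrast left: WT and WT minus KO without the WT pair, and KO Allo against the rest without the KO Allo pair. No paired analysis by replicate number could be added, since each label has 1 array; the fits already pair arrays by label (a level per pair), and the setting with no level per pair is the one without it.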
